A study of Mus musculus with 11 samples.

Results

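The cytosolic ribosomal protein genes were examined in airway RNA of mice with OVA/LPS-induced asthma exacerbation, with and without GGsTop, an inhibitor of γ-glutamyl transferase. Members were the genes annotated as protein-coding whose symbol begins with Rps, Rpl or Rplp followed by a digit, leaving out the S6 kinases, and 90 of the 21899 genes listed met this rule. These comprised 76 genes of the ribosome proper, of which 30 encode the small subunit and 46 the large subunit with its stalk. The other members were 8 paralogues or retrogenes, 5 genes that carry a pseudogene name but are annotated as protein-coding, and Rps19bp1, which encodes a protein that binds S19 and is not a ribosomal protein. The symbols Rpsa, Fau and Rack1 fall outside the rule although their products are part of the ribosome, and they are given separately.

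RNA-seq libraries numbered 3 for control mice (PBS), 4 for OVA/LPS/Vehicle mice (OL) and 4 for mice given OVA/LPS/GGsTop (OLG). All mice were wild-type male BALB/c. The PBS group was not sensitized and received PBS, the OL group was sensitized and challenged with ovalbumin (OVA), exposed to lipopolysaccharide (LPS) and given vehicle into the trachea, and the OLG group was treated in the same way with GGsTop in place of the vehicle. The OL libraries are named 12, 34, 56 and 78, and whether each pools several mice, and whether the libraries come from separate mice, is not given in the sources used here, so p-values measure only the spread between these libraries, which may be technical. The labels call the tissue trachea, whereas the study describes larger airways taken by blunt dissection without the trachea. The club cell gene Scgb1a1 had a mean of 32100 FPKM in the PBS group, 41700 in the OL group and 42000 in the OLG group, and the alveolar type II cell gene Sftpc had 9830, 5740 and 6550, where FPKM are fragments scaled to gene length and library size. The cartilage gene Acan, by contrast, had means of 9.74 ± 10.2 (SD, n = 3), 4.80 ± 2.14 (SD, n = 4) and 7.15 ± 10.9 FPKM (SD, n = 4). Its libraries thus differed widely within PBS and within OLG. In bulk tissue, fewer cells of a type and less RNA per cell cannot be told apart.

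Each cytosolic ribosome joins a small subunit, which decodes the mRNA, to a large subunit, which forms the peptide bond. Ribosomal protein mRNAs are among the most abundant in growing cells, and most begin with a C followed by a run of pyrimidines, the 5′ terminal oligopyrimidine (TOP) tract, through which mTORC1 and LARP1 control their translation. That control acts mostly on how much of the mRNA is translated, so mRNA levels report on it only in part. A few ribosomal proteins have paralogues with restricted expression, such as Rpl3l in heart and skeletal muscle.

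The starts of 6 members are shown because these genes carry the differences described below or represent the motif. Each is a window of 30 bases from 10 bases before the annotated start, from RefSeq on GRCm38.p6, written 5′ to 3′ on the strand of the gene. Capitals mark the tract from the C nearest the annotated start that meets the rule given below. The windows are Rps15a at chr7:118116128-118116157 (minus strand), Rps27 at chr3:90213629-90213658 (minus), Rps6 at chr4:86857348-86857377 (minus), Rpl22l1 at chr3:28805498-28805527 (plus), Rps27l at chr9:66946076-66946105 (plus) and Rps2 at chr17:24720053-24720082 (plus), and each spans the first bases of the annotated transcript.
Rps15a: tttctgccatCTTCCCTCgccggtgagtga
Rps27: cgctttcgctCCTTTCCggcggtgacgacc
Rps6: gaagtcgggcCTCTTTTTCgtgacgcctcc
Rpl22l1: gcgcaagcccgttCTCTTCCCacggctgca
Rps27l: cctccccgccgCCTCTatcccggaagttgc
Rps2: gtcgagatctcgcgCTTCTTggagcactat

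The tract was sought as a C followed by at least 4 bases that are C or T, with this C within 5 bases of the annotated start and on the strand of the gene. Of the members, 65 had a promoter in the RefSeq table, and 30 of these (46.2%) held the tract at any annotated start, against 5718 of all 27025 genes (21.2%) and 17 of 69 mitochondrial ribosomal protein genes (24.6%). Where several C in a run met this rule, the one nearest the annotated start was taken. In the windows above this C lay at the annotated start itself in Rps15a, Rps27 and Rps6. It lay 3 bases after the start in Rpl22l1, 1 base after it in Rps27l and 4 bases after it in Rps2. In Rps27 and Rps6 the run also holds an earlier C that meets the rule, so the capitals mark only part of it. A match describes the letters of the window only. Among members that passed the filter on low values, the 30 with the tract had a median log2 change of 0.08 in OL against PBS and the 32 without it 0.10, and in OLG against OL the medians were -0.07 and -0.06. The 2 medians lay close together in both comparisons.

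Levels differed widely among members, as the plot of ranked levels shows. The 76 genes of the ribosome proper had a median of 125 FPKM over the 11 libraries, from 0.592 for Rpl24 to 1020 for Rplp1, and 47 of them reached 100 FPKM. The acidic stalk protein gene Rplp1 was the most abundant member, followed by Rps15 (779), Rps3a1 (575), Rpl41 (437) and Rpl8 (404). The order of these genes was nearly the same in every library, with a lowest rank correlation of 0.95 between any pair of libraries, over 76 genes that share the same sequence and length in each. The least abundant of the 85 members that reached the minimum mean of 0.5 FPKM were Rpl24 (0.592), Rpl10-ps3 (0.632), Rpl36a-ps1 (1.01), Rpl21 (1.53) and Rpl3l (1.74). The other 5 members were below the minimum and were not tested. Rpl9-ps1, Rpl10l and Rpl36-ps4 were listed at 0 in all libraries, Rpl39l had a mean of 0.0927 and Rpl36al of 0.309 FPKM.

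**Figure D1:**
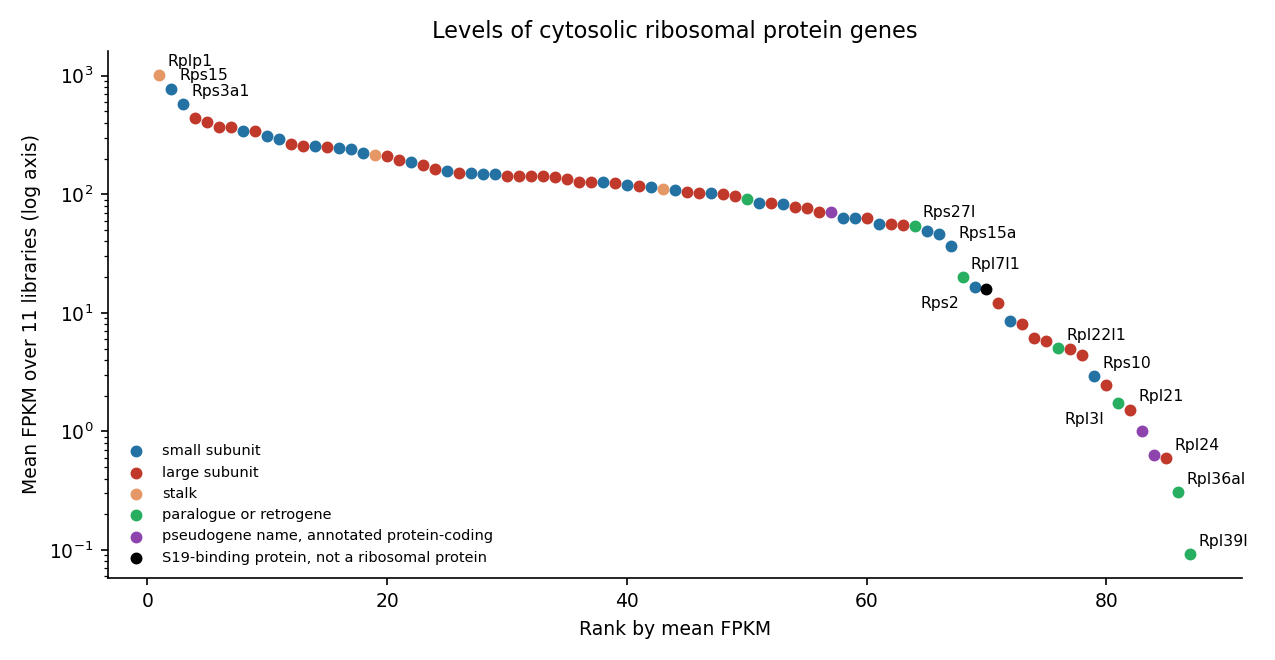
Mean FPKM over 11 libraries (log axis) of the 87 members listed above 0, in order of rank, coloured by class. Most genes of the ribosome proper lie near 100 FPKM, whereas Rps2, Rps10, Rpl21 and Rpl24 fall far below, among the paralogues.

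These levels need care, since a ribosome holds most of its core proteins in equal number while 12 of the 76 genes were below 20 FPKM. They were Rpl24, Rpl21, Rpl13a, Rps10, Rpl35a, Rpl29, Rpl26, Rpl30, Rpl23a, Rps18, Rpl35 and Rps2, and they were named after their values were seen. Ribosomal protein genes have many processed pseudogenes, and of the windows of 100 bases in the principal transcript of Rpl24, 80.1% were also found in transcripts of other genes. The share was 89.5% in Rps10, 36.8% in Rpl21, whose windows were found in 40 other genes, and 64.7% in Rps2, whose windows were found in 36. The 12 low genes had a median share of 56.2% and the other genes of the ribosome proper 41.4%, but over all 76 genes the share and the level per kilobase of mRNA had a rank correlation of -0.02. How reads with several matches were counted is not given in the sources used here, and the part of such reads in the low levels was not tested. The exon lengths behind the FPKM are a second source of unequal levels, because they merge the exons of all transcripts of a gene. For Rps15a the merged length was 6270 bases and the principal transcript 640, so that its 36.6 FPKM corresponded to 359 per kilobase of mRNA. On this scale 8 genes of the ribosome proper stayed below 20, with Rpl24 again lowest at 0.901, and Rpl41 was highest at 1170.

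Ribosomal protein mRNA took a similar share of the libraries in all 3 groups. The 90 members held 1.81%, 2.18% and 2.27% of the fragments recovered from the FPKM in PBS 1, 2 and 3. In the OL libraries 12, 34, 56 and 78 the shares were 1.96%, 2.10%, 2.39% and 2.12%, and in OLG 1 to 4 they were 2.03%, 2.17%, 2.06% and 1.91%. The ranges of the 3 groups overlapped, with means of 2.09% ± 0.244 (SD, n = 3), 2.14% ± 0.18 (SD, n = 4) and 2.04% ± 0.107 (SD, n = 4). The fragments of small subunit genes divided by those of large subunit genes gave 0.711, 0.700 and 0.661 in the PBS libraries, 0.729, 0.740, 0.750 and 0.737 in OL, and 0.722, 0.702, 0.716 and 0.688 in OLG. This ratio was higher in every OL library than in any library of the other groups, although the distance between the groups was small.

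Before the comparisons, one library has to be singled out. In each library the deviation of a gene from its mean was related to the GC content of its transcript, and this slope over all genes was 0.0652, 0.0471 and 0.550 log2 units per 10 points of GC in PBS 1, 2 and 3. It was -0.197, -0.270, -0.267 and -0.240 in the OL libraries and 0.0513, 0.0778, 0.0761 and 0.106 in OLG. PBS 3 thus stood apart from the other PBS libraries, and all OL libraries had slopes of the opposite sign to the other groups. Library depth differed less, with 15062757, 15502789 and 18632382 fragments implied for PBS, 15501855 to 16710799 for OL and 14513136 to 15777202 for OLG. The members called against PBS are therefore also counted without PBS 3 and with the GC relation removed. The mitochondrially encoded genes followed the groups too, with 6.39%, 10.1% and 2.08% of the FPKM in PBS, 19.5%, 14.5%, 17.4% and 16.3% in OL, and 10.1%, 10.9%, 7.40% and 11.1% in OLG.

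**Figure D2:**
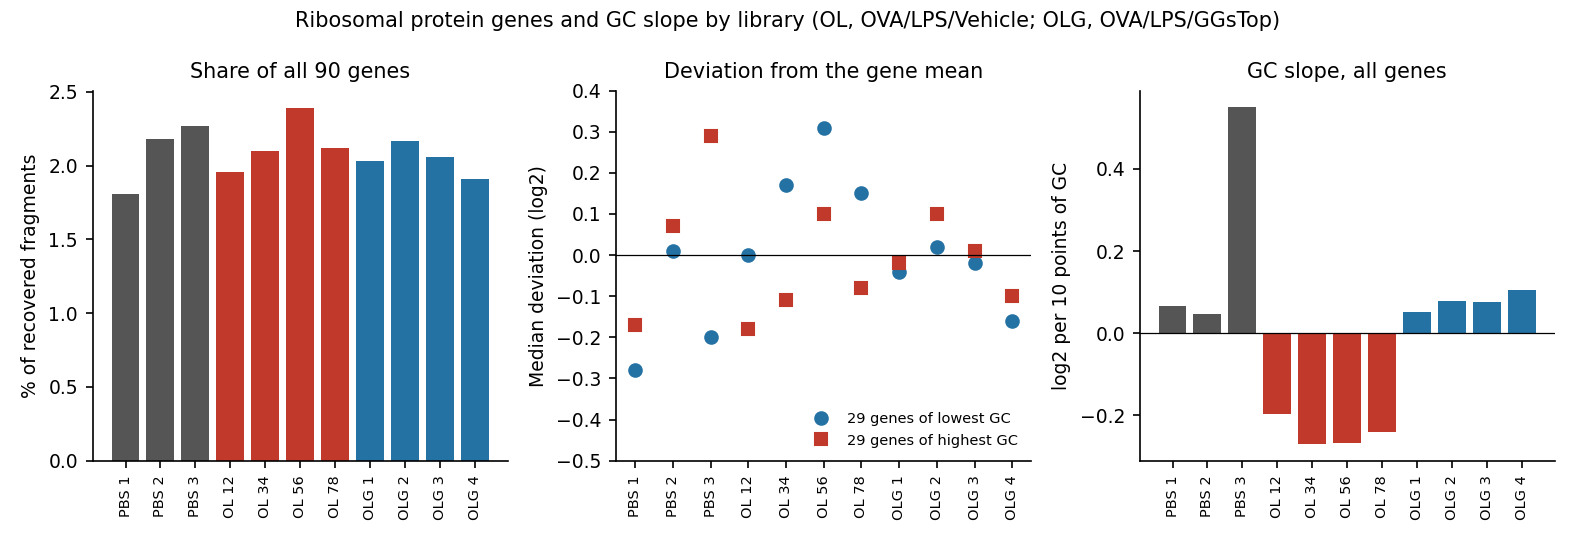
Share of recovered fragments held by the 90 members, median log2 deviation of the 29 members of lowest and the 29 of highest GC content, and the GC slope of all genes, in each of 11 libraries. The shares overlap between groups, whereas the members of low GC lie above those of high GC in all 4 OL libraries and the slope is negative only there.

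The comparison of OL with PBS asks how these mRNAs differed between exposed and control mice. The parts of sensitization, OVA challenge, LPS and the vehicle cannot be told apart in it. Of the members tested, 15 rose and 2 fell. Those that rose were Rps7, Rps15a, Rps24, Rps25, Rps27, Rps27a, Rps27l and Rps27rt of the small subunit, and Rpl7, Rpl9, Rpl22, Rpl22l1, Rpl23, Rpl30 and Rpl39 of the large subunit. Rps2 and Rpl8 fell. The median over the 85 members tested was 0.06 on the log2(FPKM + 1) scale, against -0.01 over all 14004 genes tested, and the middle 50% of members lay between -0.12 and 0.29. The share of members that rose, 17.6%, was close to the 15.9% of all genes tested that were higher in OL. The share that fell, 2.4%, was set against 22.1% of all genes that were lower. These calls used limma with Benjamini-Hochberg adjustment over all genes tested, at an adjusted p under 0.05.

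Rps27l, a paralogue of Rps27 known as a p53 target, was measured at 41.9, 44.9 and 32.2 FPKM in PBS and at 54.5, 62.3, 76.6 and 69.2 in OL. Every OL library was above every PBS library, and the log2 change was 0.72 ± 0.14 (SE) with an adjusted p of 0.00511 by limma. Rps27l shares no window of 100 bases with another gene. After the GC correction its change was 0.43 (limma adjusted p = 0.0189), but with length corrected as well it was 0.07 (limma adjusted p = 0.592).

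Rpl22l1, a paralogue of Rpl22, was measured at 4.51, 3.44 and 3.35 FPKM in PBS and at 5.81, 7.06, 7.29 and 7.01 in OL. The groups did not overlap and the log2 change was 0.71 ± 0.14 (SE, limma adjusted p = 0.0053). Rpl22l1 has the lowest GC content of the members tested, 40.6%, and after the GC correction its change was 0.20 with an adjusted p of 0.278 by limma.

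Rpl30, a large subunit protein, was measured at 4.70, 5.53 and 4.03 FPKM in PBS and at 7.35, 7.81, 7.77 and 7.09 in OL, with a log2 change of 0.57 ± 0.11 (SE, limma adjusted p = 0.00585). After the GC correction its change was 0.46, and after a correction for GC and length 0.43, and both passed the threshold (limma adjusted p = 0.0128 and 0.0185). It is one of the 12 genes of low level, with 32.5% of its windows found in 9 pseudogenes.

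Rps27a, which encodes S31 fused to ubiquitin, was measured at 88.0, 112 and 84.8 FPKM in PBS and at 125, 139, 150 and 142 in OL. Here too the groups did not overlap, and the log2 change was 0.55 ± 0.13 (SE, limma adjusted p = 0.00963), or 0.48 after the GC correction (limma adjusted p = 0.0183) and 0.29 with length corrected as well (limma adjusted p = 0.0664). Rps27 and its retrogene Rps27rt rose by 0.63 and 0.82, but 98.4% and 89.5% of their windows are found in other genes, so that their reads cannot be fully told apart. Their changes were 0.66 and 0.59 after the GC correction (limma adjusted p = 0.020 and 0.0186), and 0.35 and 0.27 with length corrected as well, when neither passed (limma adjusted p = 0.125 and 0.178). Rps15a, the homologue of bacterial S8, was measured at 27.3, 32.1 and 37.3 FPKM in PBS and at 44.9, 46.4, 50.7 and 43.8 in OL, a log2 change of 0.52 ± 0.12 (SE, limma adjusted p = 0.00865) that was 0.33 after the GC correction (limma adjusted p = 0.102). In the GC-corrected fit without PBS 3 it was 0.50 and passed.

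Of the 2 genes that fell, Rps2, whose product lies near the mRNA entrance, was measured at 17.5, 20.1 and 21.6 FPKM in PBS and at 13.9, 10.8, 14.1 and 13.2 in OL. All OL values were below all PBS values, and it fell by 0.57 on the log2 scale (SE 0.12, limma adjusted p = 0.00772). Rpl8, a core protein of the large subunit, was measured at 381, 459 and 617 FPKM in PBS and at 335, 346, 380 and 339 in OL. It fell by 0.44 (SE 0.16, limma adjusted p = 0.0457), but its highest OL value nearly reached PBS 1, and without PBS 3 the log2 change was -0.26 and no longer passed. After the GC correction Rps2 had a log2 change of -0.26 and Rpl8 of -0.08, and neither passed, but with length corrected as well Rps2 was again lower (-0.43, limma adjusted p = 0.0179).

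**Figure D3:**
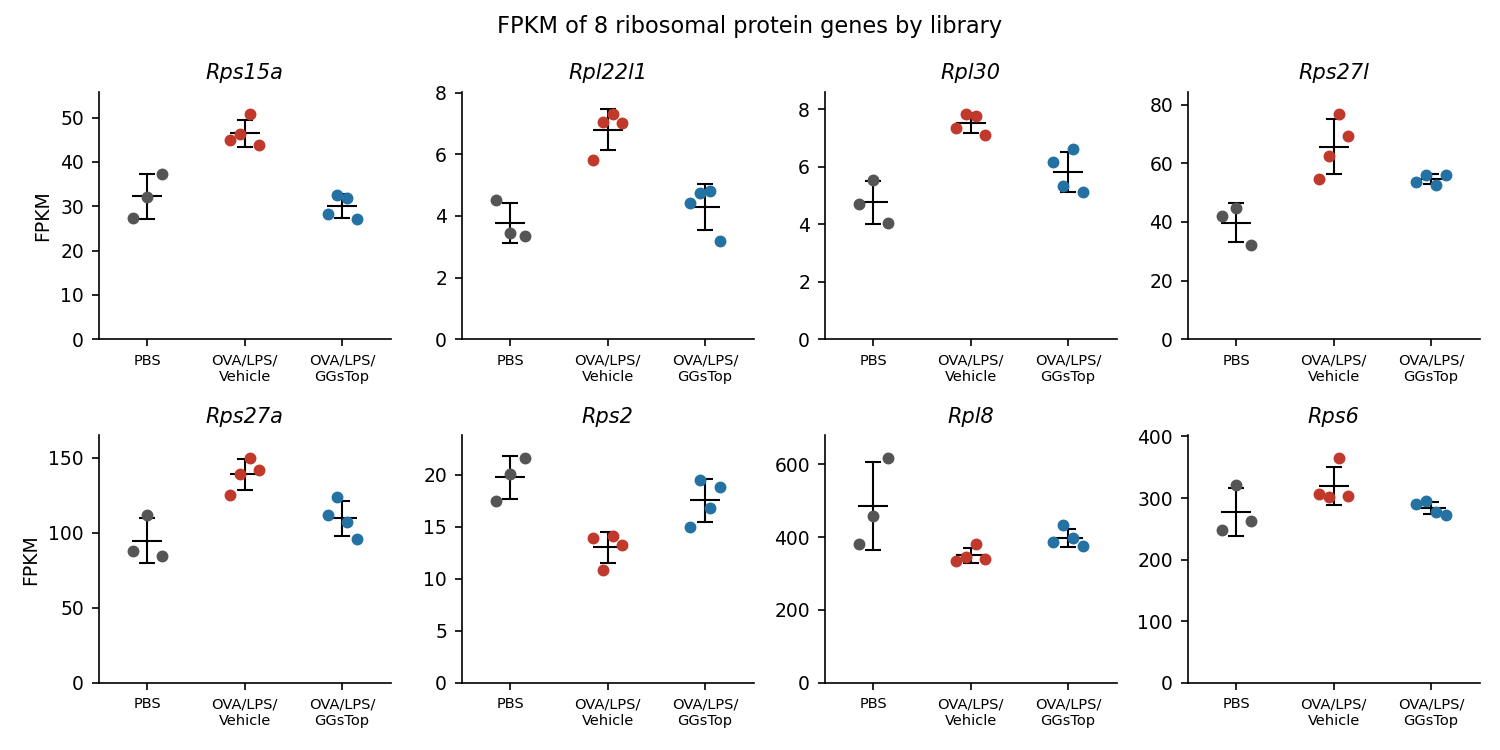
FPKM of 8 members in each library (points) with the mean and SD of the group (bars), with 3 libraries in the first group and 4 in each of the others. Rps15a and Rpl22l1 are higher in all 4 OVA/LPS/Vehicle libraries than in any other library, Rps2 is lower in all 4, and Rps6 overlaps between PBS and OVA/LPS/Vehicle.

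Leaving out PBS 3 gave 11 members higher and 1 lower, against 8.39% and 13.5% of all genes, and 9 of the 15 that rose were kept, among them Rps27l, Rpl22l1, Rpl30, Rps27a and Rps15a with log2 changes of 0.58, 0.65, 0.48, 0.48 and 0.63. Leaving out PBS 1, in which members were low as a group, gave 9 higher and 4 lower, against 14.1% and 17.5% of all genes, and the median changed from 0.06 to -0.03. With array weights, which give less weight to libraries that deviate from their group, 41 members (48.2%) were higher and 4 (4.7%) lower, against 24.6% and 31.9% of all genes, and the median was 0.20. The groups did not overlap in 13 members that were higher and 3 that were lower, where the same held for 18.7% and 25.4% of all genes tested. Beside the genes named above, Rpl7l1, Rps3a1 and Rpl21 were among these.

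The changes of the members followed their base composition. Over the 85 members, GC content of the principal transcript and the log2 change had a Spearman correlation of -0.62, and over all 13987 genes with a known GC content it was -0.60. Both are descriptions across genes that share the same libraries. Of the 29 members with at most 48.7% GC, 27 had a positive change, 12 were called higher and none lower, with a median of 0.33. Of the 29 members with at least 53.6% GC, 9 had a positive change, none was called higher and 2 were called lower, with a median of -0.12. Without PBS 3 the correlation was -0.54 and the medians were 0.26 and 0.01. The parts that the OVA/LPS exposure and differences in library composition had in this relation cannot be told apart here, because the slope differed between groups in the same way.

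After a smooth relation to GC content was removed from each library, 11 members were higher in OL and 1 lower, against 8.09% and 13.6% of all genes. Rpl30, Rpl39, Rps7, Rps27, Rps27a, Rps27l and Rps27rt remained among those higher, Rpl11, Rpl38, Rps19bp1 and Rps21 joined them, and Rpl5 was lower. The median of the members was then 0.17, against -0.04 for all genes. When gene length was removed as well, 2 members (2.4%) were higher and 7 (8.2%) lower, against 7.96% and 11.5% of all genes, and the median was -0.03. Without PBS 3 the GC-corrected fit called Rps15a and Rpl38 higher and no member lower, where 1.69% of all genes were higher and 3.18% lower. Calls were lost or gained between these settings, and Rpl9-ps6 was called lower after the correction for GC content and length but higher by limma with array weights.

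**Figure D4:**
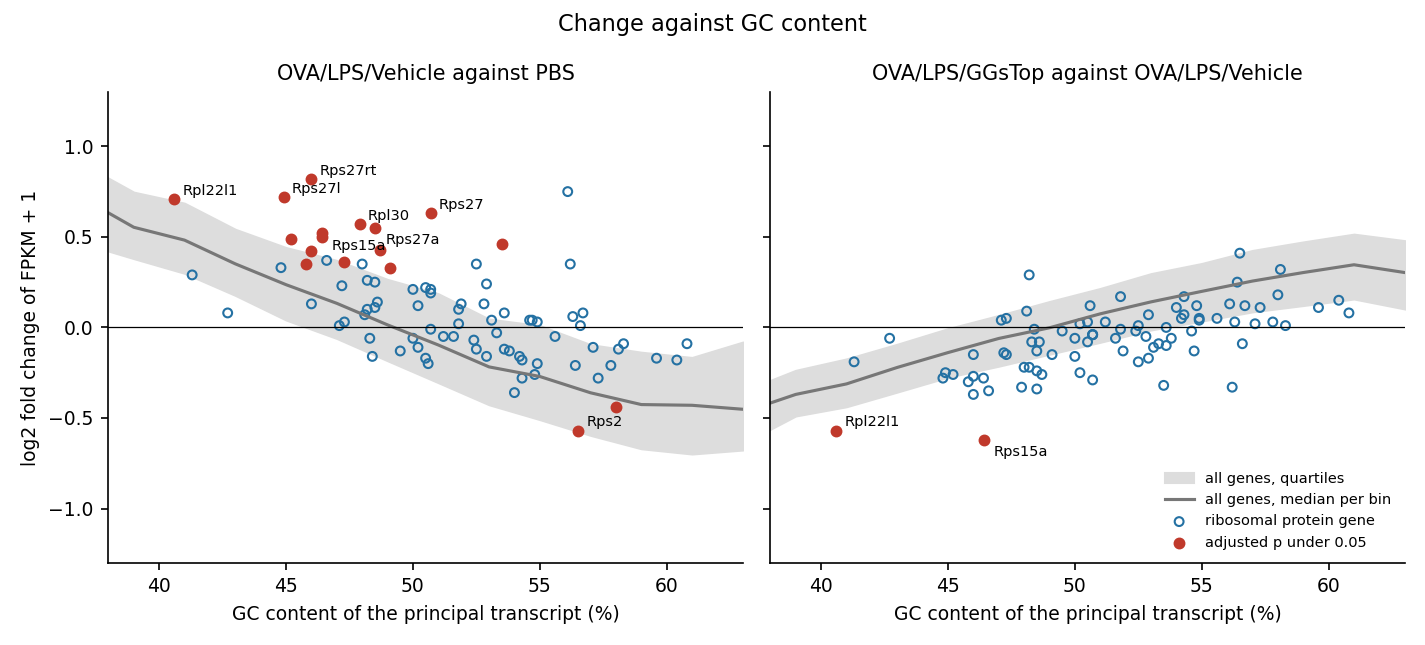
Log2 fold change of FPKM + 1 against the GC content of the principal transcript for the 85 members tested (circles, filled where the adjusted p was under 0.05), with the median and quartiles of all genes in bins of 2 points (grey). The members lie along the falling line in OVA/LPS/Vehicle against PBS and along the rising line in OVA/LPS/GGsTop against OVA/LPS/Vehicle.

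The comparison of OLG with OL asks what GGsTop changed in exposed mice. Rps15a and Rpl22l1 fell and no member rose, where 1.81% of all genes were lower and 6.9% higher. The median over the 85 members was -0.05, against 0.03 over all genes, and the middle 50% of members lay between -0.19 and 0.05. Without adjustment, 8 members (9.4%) were lower and 1 (1.2%) was higher at a p under 0.05, where 11% and 19.9% of all genes were. This comparison shares the OL libraries with the one above, so the opposite signs of the same genes are not separate evidence.

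Rps15a was measured at 28.3, 32.6, 31.9 and 27.2 FPKM in OLG, all below the lowest OL value of 43.8 and within the range of the PBS libraries except for the lowest, which was just under PBS 1. It fell by 0.62 on the log2 scale (SE 0.11, limma adjusted p = 0.0187). After the GC correction its log2 change was -0.48 with an adjusted p of 0.0655 by limma. Rpl22l1 was measured at 4.41, 4.75, 4.81 and 3.19 FPKM in OLG, below the lowest OL value of 5.81. It fell by 0.57 (SE 0.13, limma adjusted p = 0.0292), and its log2 change was -0.20 after the GC correction (limma adjusted p = 0.344).

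The next members by p-value did not pass. Rps2 had 15.0, 19.5, 16.8 and 18.8 FPKM in OLG, all above the OL values, with a log2 change of 0.41 ± 0.12 (SE, limma adjusted p = 0.0511). Rpl30, Rpl7 and Rps27a had log2 changes of -0.33, -0.30 and -0.34 with adjusted p of 0.0716, 0.0849 and 0.09 by limma. Members whose groups did not overlap numbered 13 lower, against 12.4% of all genes tested, and 1 higher, against 17.3%. Besides genes already named, the 13 included Rpl4, Rps4x and Rps6. After the GC correction no member was called by limma in either direction, where 0.35% of all genes were lower and 1.43% higher, and without PBS 3 that fit called Rps15a and Rpl38 lower, where 0.929% of all genes were lower. With array weights 16 members (18.8%) were lower and 5 (5.9%) higher, against 14.2% and 23.1% of all genes, and a fit of only these groups gave 9 (10.6%) lower and 1 (1.2%) higher, against 10% and 15.1%. The 2 calls were lost without OL 34, without OL 56 or without OLG 1, and 1 of them without OL 78, OLG 2 or OLG 3.

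Here the relation to GC content had the opposite sign, with a Spearman correlation of 0.63 over the 85 members and also 0.63 over all genes. The 29 members of low GC had a median of -0.22, with 4 positive changes, and the 29 of high GC a median of 0.05, with 22 positive changes. In the single libraries, the median deviation of the low-GC members minus that of the high-GC members was -0.11, -0.06 and -0.49 in PBS 1 to 3. It was 0.18, 0.27, 0.21 and 0.22 in OL and -0.02, -0.07, -0.03 and -0.06 in OLG. All OL libraries lay above all others on this measure, PBS 1 and 2 lay near OLG, and PBS 3 lay far below.

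In OLG against PBS no member was called by limma, against 0.821% of all genes lower and 2.06% higher. At an unadjusted p under 0.05, 3 members (3.5%) were higher and none lower, where 10.7% of all genes were higher and 9.79% lower. The smallest p belonged to Rps27l, which was measured at 53.6, 55.9, 52.5 and 56.1 FPKM in OLG, above the highest PBS value of 44.9, with a log2 change of 0.46 ± 0.14 (SE, limma adjusted p = 0.0925). Rps27rt had 0.45 and Rpl3l 0.88, with adjusted p of 0.193 and 0.218 by limma. Limma voom on the recovered fragments also called no member, nor did the GC correction, the fit without PBS 3 or a block for the numbers shared by PBS and OLG, under which 16 of all genes were lower and 46 higher. Array weights called 11 members (12.9%) higher, against 9.85% of all genes, and the fit without PBS 2 called 3 (3.5%), against 6.82%.

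Rps6, the small subunit protein phosphorylated by the S6 kinases, was measured at 248, 321 and 263 FPKM in PBS, 306, 301, 365 and 304 in OL, and 290, 295, 277 and 273 in OLG. The OLG values were all below the OL values, whereas PBS overlapped both, and Rps6 was called in none of the 3 comparisons (limma adjusted p = 0.359 in OLG against OL). The stalk proteins Rplp0, Rplp1 and Rplp2, which recruit the elongation factors, were called in none either, with a median log2 change of -0.16 in OL against PBS and 0.07 in OLG against OL. Rplp1 was at 857, 1100 and 1530 FPKM in PBS, 838, 917, 1070 and 912 in OL, and 972, 1080, 993 and 978 in OLG, with PBS 3 the highest of all libraries.

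Of the genes outside the name rule, Rpsa, the laminin receptor protein of the small subunit, was at 168, 216 and 218 FPKM in PBS, 188, 167, 207 and 174 in OL, and 166, 202, 168 and 176 in OLG, and the groups overlapped. Fau, whose product includes S30, had medians of 299, 313 and 314 FPKM in the 3 groups. Rack1, a scaffold on the small subunit, was at 82.7, 92.8 and 117 FPKM in PBS, 77.0, 73.7, 85.8 and 78.9 in OL, and 79.7, 91.2, 82.1 and 81.3 in OLG.

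Paralogues were compared with their parent genes within each library, as the log2 ratio of FPKM with 0.1 added. Over 4 pairs and 3 comparisons, 12 exact two-sided permutation tests were made, and no test passed after adjustment. The smallest p possible was 0.0286, so a single test at that value could not pass the adjustment over all 12. Rpl22l1 over Rpl22 had log2 ratios of -3.36, -3.98 and -3.59 in PBS, -3.20, -3.14, -3.22 and -3.11 in OL, and -3.71, -3.55, -3.50 and -3.96 in OLG. The OL ratios were above all others, and the differences of 0.47 from PBS and -0.51 from OL to OLG each had an exact p of 0.0286 (adjusted 0.114). Rpl22 itself rose in OL against PBS by 0.36 (SE 0.12, limma adjusted p = 0.0352), but not after the GC correction (0.22, limma adjusted p = 0.121) nor without PBS 3 (0.26), and Rpl22l1 also lost its call after the GC correction. Rpl7l1 over Rpl7 had a mean log2 ratio of -3.37 in PBS, -3.50 in OL and -3.27 in OLG, and the difference of 0.23 between OLG and OL had an exact permutation p of 0.0286 (adjusted 0.114). Rps27l over Rps27 had means of -1.3, -1.21 and -1.17, and the groups overlapped in each comparison. Rpl36al, Rpl39l and Rpl10l were too low for a test, with Rpl10l listed at 0 throughout.

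Rpl3l, the paralogue of Rpl3 found in striated muscle, varied widely between libraries of the same group. It was at 0.202, 2.36 and 0.163 FPKM in PBS 1, 2 and 3, at 1.22, 2.0, 2.67 and 1.57 in OL, and at 2.63, 1.43, 1.16 and 3.70 in OLG. PBS 1 and PBS 3 were thus about an order of magnitude below PBS 2, which was within the range of the treated groups. The sum of 10 heart muscle markers (Myl7, Actc1, Myh6 and others) was 97.2, 1900 and 141 FPKM in PBS, 1290, 926, 1510 and 1380 in OL, and 946, 2250, 599 and 2560 in OLG, with Myl7 the most abundant and no marker at 0 throughout. The same 2 PBS libraries were low in both, and the part of muscle tissue in the Rpl3l values was not tested. The log2 ratio of Rpl3l over Rpl3 was 1.58 higher in OL than in PBS, where its SD was 1.7 (exact permutation p = 0.143). It was 1.87 higher in OLG than in PBS (exact permutation p = 0.114) and 0.29 higher in OLG than in OL (exact permutation p = 0.514). With so few libraries, these tests cannot show that the groups are alike.

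**Figure D5:**
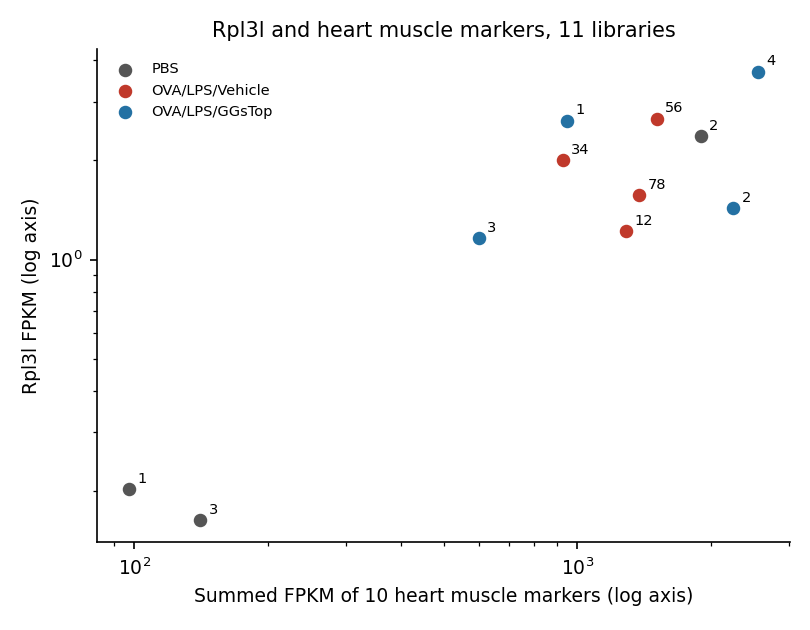
Rpl3l FPKM against the summed FPKM of 10 heart muscle markers (both log axes) in 11 libraries, labelled by library number and coloured by group. PBS 1 and PBS 3 lie apart at low values of both, and PBS 2 lies among the libraries of the other groups.

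The genes that work with ribosomal proteins were described from lists. Their counts are to be read against all genes tested, of which 15.9% were higher and 22.1% lower in OL against PBS, 8.09% and 13.6% after the GC correction, and 8.39% and 13.5% without PBS 3. In OLG against OL the shares of all genes were 6.9% higher and 1.81% lower, or 1.43% and 0.35% after the GC correction. Among 10 elongation factor genes, Eef1b2, which recycles the factor that delivers aminoacyl-tRNA, rose in OL against PBS by 0.47 (SE 0.11, limma adjusted p = 0.00937). Eef2, the translocation factor, fell by 0.57 (SE 0.15, limma adjusted p = 0.0154), with means of 684, 454 and 570 FPKM in the 3 groups. Neither passed after the GC correction, which left no gene of the list called in this comparison, and in OLG against OL only Eif5a2 was called, lower by 0.56 (limma adjusted p = 0.0386), with -0.15 after the GC correction (limma adjusted p = 0.293). Without PBS 3, Eef1b2 was still called higher and Eef2 lower. Of 37 initiation factor genes, 11 (29.7%) rose and 6 (16.2%) fell, against 15.9% and 22.1% of all genes, with a median of 0.04, and after the GC correction 2 were higher and 1 lower, or 8 and 4 without PBS 3. Eif5b, which joins the subunits, had means of 10.2, 15.9 and 12.6 FPKM and rose by 0.61, and Eif2s2 and Eif2s1 of the ternary complex factor rose by 0.69 and 0.55 (limma adjusted p = 0.0115 and 0.0122), or 0.20 and 0.05 after the GC correction, when neither passed. In OLG against OL none of the initiation factor genes was called by limma (limma adjusted p = 0.0524 for Pabpc1, the smallest of the list).

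Among 17 other genes whose mRNA begins with a TOP tract, 4 (23.5%) rose in OL against PBS and 1 (5.9%) fell, with a median of 0.10, against 2 and 1 after the GC correction and 4 and 2 without PBS 3. The nucleolar chaperone gene Npm1 was at 54.6 ± 12 FPKM in PBS (SD, n = 3), 92.5 ± 7.63 in OL (SD, n = 4) and 57.6 ± 3.06 in OLG (SD, n = 4). It rose by 0.77 and then fell by 0.67 in OLG against OL (limma adjusted p = 0.00457 and 0.0204), and after the GC correction the changes were 0.35 and -0.37 (limma adjusted p = 0.0221 and 0.0499). Btf3, part of the nascent chain complex, had means of 64.4, 99.7 and 67.8 FPKM and log2 changes of 0.63 and -0.55 (limma adjusted p = 0.00823 and 0.0315), or 0.69 and -0.59 after the GC correction, when the second no longer passed (limma adjusted p = 0.0131 and 0.0527). Of 57 ribosome biogenesis genes, 8 (14%) rose and 8 fell in OL against PBS, against 15.9% and 22.1% of all genes, 7 and 2 after the GC correction, and 5 and 3 without PBS 3. Among them were Mphosph10, a small subunit processing factor (0.93, SE 0.17), and Mybbp1a, a nucleolar Myb-binding protein (-0.46, SE 0.09), and the list had a median of -0.02. In OLG against OL only Npm1 of this list was called in the main fit, and 2 genes were lower after the GC correction.

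Of 33 genes of mTORC1, its regulators and the S6 kinases, 5 (15.2%) rose and 11 (33.3%) fell in OL against PBS, against 15.9% and 22.1% of all genes, with a median of -0.27, or -0.09 after the GC correction, when 2 were higher and 6 lower. Without PBS 3 the counts were 2 higher and 7 lower. In OLG against OL 6 (18.2%) rose and none fell, against 6.9% and 1.81% of all genes, and after the GC correction 1 was higher. Tsc2, a negative regulator of mTORC1, had means of 16.2, 8.25 and 13.8 FPKM. It fell by 0.88 in OL against PBS (SE 0.14, limma adjusted p = 0.00359) and rose by 0.67 in OLG against OL (SE 0.13, limma adjusted p = 0.0198), and both calls were kept after the GC correction (limma adjusted p = 0.00805 and 0.0406). The kinase genes Rps6ka1 and Rps6ka2 fell in OL against PBS by 0.59 and 0.75, and both calls were kept after the GC correction (-0.25 and -0.55, limma adjusted p = 0.0408 and 0.0196). Rps6ka1 and Rps6kb2 rose in OLG against OL by 0.49 and 0.55, with 0.26 and 0.36 after the GC correction, when neither passed (limma adjusted p = 0.0772 and 0.0918). Ddit4, a stress-induced inhibitor of mTORC1, was the only gene of the list called in OLG against PBS, with means of 17.0 and 45.1 FPKM and a log2 change of 1.35 ± 0.23 (SE, limma adjusted p = 0.0157), and without PBS 3 no gene of the list was called there.

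The mitochondrial ribosome is built from other genes. Of its 77 genes tested, 20 (26%) rose and 5 (6.5%) fell in OL against PBS, with a median of 0.16, 19 and 1 did so after the GC correction, and 10 and 2 without PBS 3. Mrpl41 rose from 17.5 to 26.6 FPKM and Mrpl18 from 9.72 to 15.6, and Mrpl18 and Mrpl46 fell again in OLG against OL, by 0.49 and 0.43 (limma adjusted p = 0.0312 and 0.0246). The 79 nuclear genes of the respiratory chain had a median of 0.50 in OL against PBS, with 35 (44.3%) higher and 2 (2.5%) lower (32 and 0 after the GC correction, 12 and 0 without PBS 3), and -0.32 in OLG against OL, with 2 lower and none higher. Ndufb1-ps was one of both sets, at 8.35, 17.1 and 9.85 FPKM in the 3 groups (limma adjusted p = 0.00337 and 0.0181). All 13 mitochondrially encoded genes were called higher in OL against PBS, with a median of 2.11 (11 of them after the GC correction and 11 without PBS 3), and 4 lower in OLG against OL. These medians lay farther from 0 than the 0.06 and -0.05 of the cytosolic ribosomal protein genes, but the difference between the lists was not tested. After the GC correction the cytosolic genes had medians of 0.17 and -0.11, close to the 0.20 and -0.12 of the mitochondrial ribosomal protein genes. The respiratory chain list then had 0.57 and -0.38, and the mitochondrially encoded genes 1.48 and -0.65. With length corrected as well, the medians of the cytosolic genes were -0.03 and 0.0. The other lists are not given in that setting, so the closeness of the 2 ribosomal lists is described for the GC correction only.

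Markers of other cells moved between libraries alongside these values, and their part in the ribosomal protein values was not tested. The summed FPKM of 8 proliferation genes was 43.5, 43.7 and 49.7 in PBS, 69.1, 44.6, 63.2 and 45.6 in OL, and 36.3, 38.6, 41.4 and 36.4 in OLG. Its most abundant gene, Pcna, fell in OLG against OL by 0.39 (SE 0.10, limma adjusted p = 0.0406), but its change was -0.21 after the GC correction (limma adjusted p = 0.284). In OL against PBS, 3 of the 8 were called higher, none after the GC correction and 1 without PBS 3. The 7 thyroid and parathyroid genes summed to 98.8, 268 and 539 in OL 12, 34 and 56 but to 0.788 in OL 78, and to at most 2.15 in every library of the other groups. The 7 adipocyte genes summed to 143, 272 and 21.7 in PBS, to 937, 265, 471 and 340 in OL and to 26.2, 230, 16.0 and 240 in OLG, with Fabp4 the most abundant. Markers of airway epithelium rose in 6 of 12 genes in OL against PBS and none fell (6 and 0 after the GC correction, 3 and 0 without PBS 3), and of 7 alveolar markers 2 fell (1 after the GC correction and 1 without PBS 3), among them Sftpb with means of 1230, 334 and 689 FPKM. Of immune cell markers, none of 9 T cell genes was called by limma in OL against PBS, 1 of 6 B and plasma cell genes rose (Jchain, by 4.26 with a limma adjusted p of 0.00337), and of 8 macrophage genes 1 rose and 1 fell (2 and 0 after the GC correction, 1 and 0 without PBS 3). Jchain was called higher in both of these settings. Of 5 granulocyte genes tested, 1 rose and 1 fell in OL against PBS (1 and 0 after the GC correction, 0 and 0 without PBS 3).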

How the data were processed

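Poly(A) RNA of 11 airway libraries was sequenced. The authors deposited FPKM, fragments divided by gene length and library total, in 1 table with no further scaling. The submitters' processing notes name cutadapt 1.15, HISAT2 2.0.5, HTSeq 0.9.1 and the build mm39. With merged exon lengths of GENCODE M21 (GRCm38), however, the values came out as whole fragment numbers throughout for 21415 genes (97.8%, tolerance 0.02) and for all 90 members. Gene names and lengths are from GENCODE M21 (21846 identifiers matched) and sequences from RefSeq on GRCm38.p6.

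Limma 3.58.1 (R 4.3.3, trended variance, all 11 libraries) was fitted to log2(FPKM + 1) of 14004 genes whose mean reached 0.5 FPKM. Two-sided p-values were Benjamini-Hochberg adjusted over these genes. Fold changes on this scale understate the change of low genes. GC content was that of the APPRIS principal transcript, and its relation was removed in each library by a spline with 5 degrees of freedom. Limma voom on the recovered fragments of 13677 genes called 3110 genes lower and 2262 higher in OL against PBS, 220 and 959 in OLG against OL, and 89 and 229 in OLG against PBS. Paralogue ratios were compared by exact permutation tests. The alternatives were other scalings, filters and pseudocounts, removal of mitochondrial genes, array weights, GC and length corrections, fits of only the groups compared, each library left out in turn and a replicate block. The limma fit was tested on simulated data with independent noise for each gene and changes added to a set of genes. The simulation held no GC relation or library effect, so it does not bear on the GC slopes described above. Tables were made with Python 3.11.15 and pandas 2.3.3.

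Members and lists were chosen with earlier results of these data known. The genes named are the 5 members with the smallest p per direction and comparison, those called, the 5 most and least abundant, paralogues with their parents, stalk genes, Rps6, genes outside the name rule, members in which 1 library stood apart, and genes of each list with the smallest p or, for markers, the highest level. Members listed for their low level or for groups that did not overlap were named after their values were seen. The main fit used no pairing, and the labels name no pairs. Only the replicate block treated the same numbers in PBS and OLG as pairs. Deviations of same-numbered libraries had correlations of 0.367, 0.427 and 0.428. These values do not establish a pairing, since PBS 1 correlated more with OLG 3 (0.457). Some results are not reported here.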

Additional observations from a re-analysis of the deposited data

Results flagged for a closer look

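Among the 85 members tested, each of the OL and OLG groups was searched for a library far from the other 3, and 9 of 170 checks stood out by a Dixon ratio above the 95% critical value for 4 samples. Chance flags about 1 in 20 such groups. Of these, 8 are given here. Library 56 was the highest of the OL group for Rpl6 at 145 FPKM, Rplp2 at 127, Rps6 at 365 and Rps7 at 121. This library had the highest share of member fragments of all 11, 2.39%. In OL 12, Rpl24 was the highest at 1.38 FPKM. In OLG 4, Rpl34 was the lowest at 56 FPKM and Rps24 at 71.0, whereas Rpl9-ps6, a gene with a pseudogene name, was the highest at 80.4.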

How the results depend on the processing

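In OL against PBS, the reported analysis called 2 members lower and 15 higher. The lower count was 1 after the GC correction, with no filter, with libraries set to the same median and in a fit of only the 2 groups, 4 with array weights, 7 with the correction for GC and length, 0 in the GC-corrected fit without PBS 3, and 1 to 4 with each library left out in turn. The higher count was 41 with array weights (24.6% of all genes), with a median of 0.204 against 0.064, 2 with the correction for GC and length, 2 in the GC-corrected fit without PBS 3, and 9 to 18 with each library left out, the lowest without PBS 1. In OLG against OL, the 2 lower became 16 with array weights (14.2% of all genes), 9 in a fit of only the 2 groups (10%), 0 after either correction (2 in the GC-corrected fit without PBS 3) and 0 to 2 with each library left out, and the 0 higher became 5 with array weights, 1 with a minimum of 1 FPKM and 1 in a fit of only the 2 groups. In OLG against PBS, the 0 higher became 11 with array weights, with a median of 0.159 against 0.016, and 0 to 3 with each library left out, the 3 without PBS 2. The cause was not tested. With the replicate block for the same numbers in PBS and OLG, 0 members were lower and 0 higher with a median of 0.048. The block changed no call of a member. The GC-corrected fit without PBS 3, the unblocked fit of the libraries in that block and the block with the GC correction were chosen after seeing the data. At this depth, a member near 0.5 FPKM rests on few fragments.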
